A study of Mus musculus with 3 samples.

Results

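Immunity-related GTPases (IRGs) were examined in mouse bone marrow-derived macrophages (BMDMs) through the 7 IRG genes Irgm1, Irgm2, Igtp, Iigp1, Ifi47, Tgtp1, and Tgtp2. The members were chosen by name: a probe belonged to the family if it was not a control and the array design gave it 1 of these 7 gene names. All 7 were present, on 10 probes with 19 spots per array, among 34821 gene names in all. BMDMs of C57BL/6J mice, grown with M-CSF, were stimulated for 20 h in 3 ways. The agents were CpG, a DNA ligand of TLR9, IFN-γ with an antibody that blocks the IL-10 receptor (labelled IFN-g+IL-10RB, here IFN-γ + αIL-10R), or all of them together (Triple). Each condition had 1 array, so that no difference between conditions has a replicate check and no p-value is given. The arrays used here include no unstimulated BMDMs and no BMDMs given IFN-γ or αIL-10R alone, so that every value compares stimulated cells with each other, and IFN-γ and αIL-10R cannot be told apart. Because the RNA came from whole cultures, fewer expressing cells and less RNA per cell cannot be told apart either.

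IRGs are large GTPases that mouse cells make after exposure to interferons, and they are best known for cell-autonomous defence against parasites and bacteria that live in vacuoles. The response to IFN-γ acts on genes through GAS elements and through IRF1, which binds the interferon-stimulated response element (ISRE). The proteins fall into regulators, called GMS after a methionine in the first GTP-binding motif, which sit on the cell's own membranes and keep the others inactive there, and effectors, called GKS after the lysine usual at that position, which load onto the vacuole around a pathogen and break it. Irgm1, Irgm2, and Igtp (Irgm3) are regulators, and Iigp1 (Irga6), Ifi47 (Irgd), Tgtp1, and Tgtp2 (both Irgb6) are effectors.

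The promoters of the members are shown first, since 4 of them share an arrangement of letters that few other mouse promoters have. RefSeq promoters of GRCm38.p6, each with 250 bases before and 50 after the annotated start, were found for 6 of the 7 members, all but Iigp1. Both strands were searched for a short form of the ISRE, which reads GAAA, any 2 bases, and GAAA again, and for a form of the GAS element, which reads TTC, any 3 bases, and GAA. The search was chosen after the array values had been seen. The ISRE form was present in 5 of the 6 promoters and in 3.44% of 32851 mouse promoters. The GAS form was present in 4 of the 6 and in 8.30% of all. Capitals mark both matches in the windows around the ISRE form, which lie at chr11:48871421-48871479 for Irgm1, chr11:58214878-58214947 for Irgm2, chr11:58199487-58199555 for Igtp, chr11:48992289-48992358 for Tgtp1, and chr11:49064248-49064317 for Tgtp2. The windows are written in the direction of transcription, which is the minus strand for Irgm1, Tgtp1, and Tgtp2 and the plus strand for Irgm2 and Igtp.
Irgm1: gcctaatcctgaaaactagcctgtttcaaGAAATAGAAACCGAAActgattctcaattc
Irgm2: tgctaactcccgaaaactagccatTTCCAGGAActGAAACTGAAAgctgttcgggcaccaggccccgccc
Igtp: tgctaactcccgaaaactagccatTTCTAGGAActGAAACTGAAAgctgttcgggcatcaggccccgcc
Tgtp1: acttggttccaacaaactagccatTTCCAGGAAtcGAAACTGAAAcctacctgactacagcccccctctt
Tgtp2: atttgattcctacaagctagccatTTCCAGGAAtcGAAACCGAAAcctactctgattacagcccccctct

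In Irgm2, Igtp, Tgtp1, and Tgtp2 the GAS form began exactly 11 bases before the ISRE form. The GAS form followed after any 2 bases by the ISRE form was present in 5 of the 32851 promoters, those of these 4 members and of Gm12185, a predicted gene of chromosome 11 near Tgtp1 and Tgtp2. The ISRE form began 64 bases before the start in Irgm2, 34 in Igtp, 77 in Tgtp1, and 70 in Tgtp2. Irgm1 had 2 overlapping ISRE matches, which began 30 and 24 bases before the start, and no GAS match, and Ifi47 had neither form within its window. When aligned on the ISRE form, the windows of Igtp and Irgm2 were identical at 67 of 69 bases (97.1%), those of Tgtp1 and Tgtp2 at 52 of 70 (74.3%), and those of Irgm2 and Tgtp1 at 44 of 70 (62.9%), so that these promoters are not independent sequences. All 5 genes with this arrangement were more than 2-fold higher with IFN-γ + αIL-10R than with CpG, against 3.59% of 15676 genes without it. The arrangement searched for has the spacing of the 4 members, whose folds (described below) were already known. Their part in this count was therefore fixed beforehand. Only Gm12185 was not among them, and it lies between IRG genes on chromosome 11. Its promoter was not compared with those of the members, so it cannot be taken as an independent case. Gm12185 was higher by a log2 fold of at least 3.16. Over the genes with both a promoter and an array value, 10.8% of 619 genes with the ISRE form and 3.32% of 15062 without it were more than 2-fold higher in that comparison. For the GAS form the shares were 4.68% of 1432 genes and 3.51% of 14249. The genes with either form include IRG members, whose folds were known when the search was chosen. These matches are letters in a window, and binding was not measured.

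**Figure D1:**
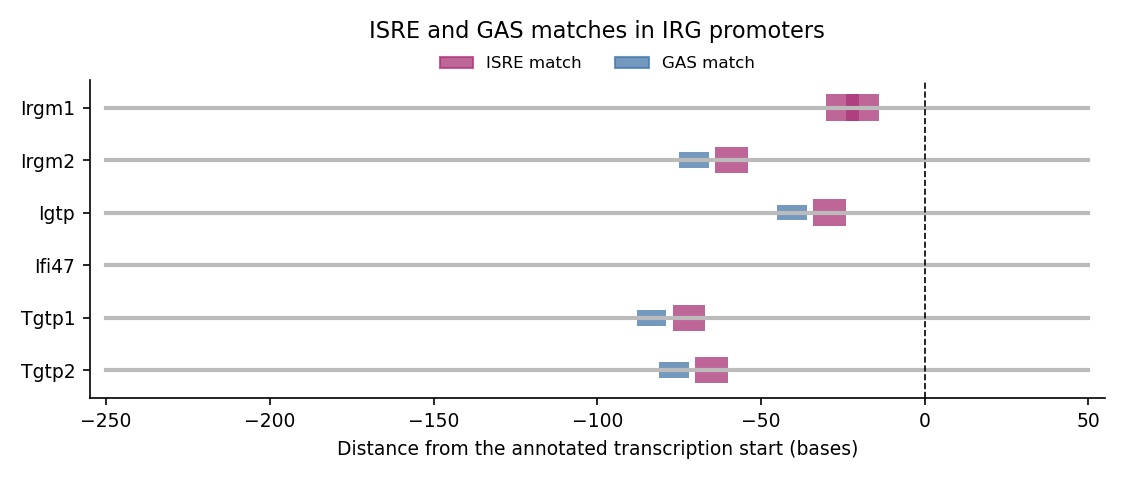
Positions of ISRE matches (tall boxes) and GAS matches (low boxes) in the 6 IRG promoters, by distance from the annotated start in bases (dashed line at 0). The GAS match began 11 bases before the ISRE match in Irgm2, Igtp, Tgtp1, and Tgtp2, Irgm1 had 2 overlapping ISRE matches, and Ifi47 had none.

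Expression was measured on 1-colour arrays as an intensity, the scanner software's processed signal, which is corrected for background. Between 44.4% and 46.0% of the spots were well above background by the software's flag and 0 were saturated. Folds were computed after the arrays had been brought to the same 75th percentile. The signals printed here are as deposited, and a fold therefore differs slightly from the ratio of 2 printed signals. The spread of repeated spots of 1 probe within an array gave a technical SD of 0.12 to 0.13 for a log2 fold computed from 1 spot per array. Differences between cultures are not part of this SD. A gene was called higher or lower if the brighter signal was well above background and more than 2-fold over the other. Positions of probes are given on mm9, as in the array annotation, and exons or UTRs at these positions were not looked up.

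All 7 IRG genes were higher after the treatments that contained IFN-γ than after CpG, and the addition of CpG to IFN-γ + αIL-10R left each of them within 2-fold. Each was more than 2-fold higher with IFN-γ + αIL-10R than with CpG, against 3.18% of all 33597 genes measured. Likewise, all 7 were more than 2-fold higher in Triple than with CpG, against 4.08% of all genes. When Triple was compared with IFN-γ + αIL-10R, none of the 7 was past 2-fold, while 3.53% of all genes were higher and 5.00% were lower. The median log2 fold of the 7 genes was 2.88 for IFN-γ + αIL-10R over CpG, 2.67 for Triple over CpG, and −0.10 for Triple over IFN-γ + αIL-10R, beside 0.002, −0.050, and −0.045 over the 15894 genes that every array measured well above background. The comparisons share arrays, so that an error in 1 array enters 2 of them. Every member probe was well above background on all 3 arrays, so none of these folds is a bound. The probes of Tgtp1 and Tgtp2 measure both copies, as given below, so that the 7 genes are not 7 separate measures.

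**Figure D2:**
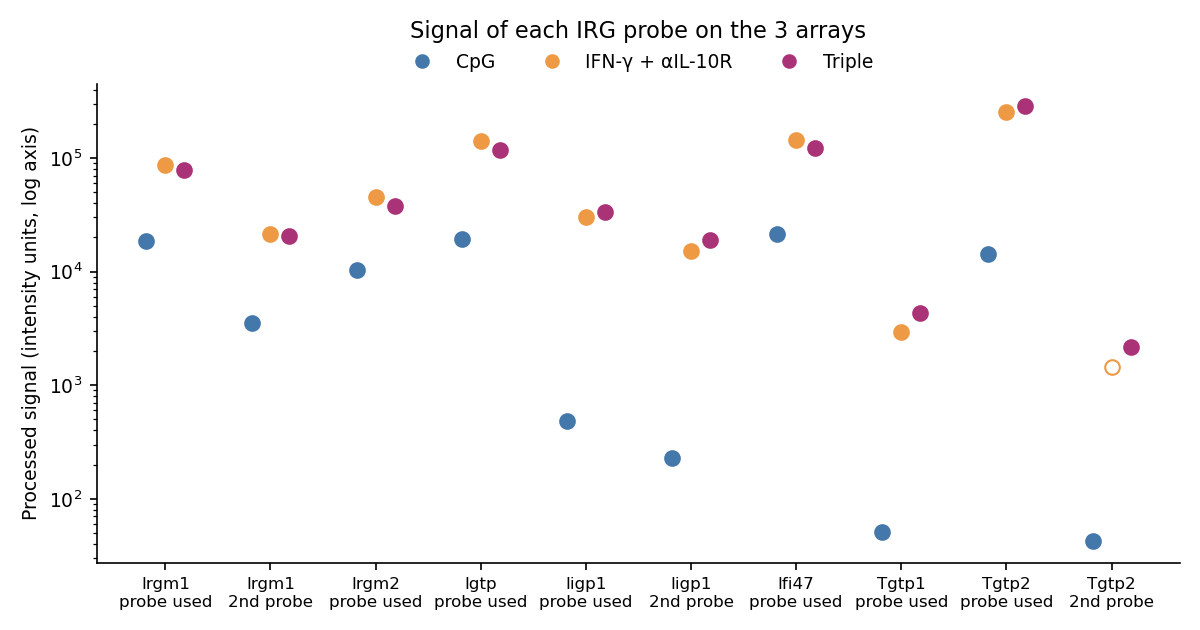
Processed signal (log axis) of the 10 IRG probes on the CpG, IFN-γ + αIL-10R, and Triple arrays, 1 point per array. For every probe the CpG point is the lowest and the other two lie close together, and the open point marks a spot that the software flagged as an outlier.

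Among the regulators, Irgm1, which acts on autophagy and on the vacuoles of mycobacteria, had a signal of 18688 with CpG, which became 85939 with IFN-γ + αIL-10R and 78632 when CpG was added. The gene was thus already well above background with CpG. Its folds over CpG were 4.68 without and 4.37 with CpG in the mixture. A second Irgm1 probe gave 3543, 21421, and 20525 in the same order, with log2 folds over CpG of 2.62 and 2.59, compared with 2.23 and 2.13 for the brighter probe. The probes, at chromosome 11 from 48679069 to 48679128 and from 48679632 to 48679691 (NM_008326), therefore agreed in direction and differed in size by about 0.4 on the log2 scale, more than the technical SD.

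Irgm2, a regulator found at the Golgi and on vacuole membranes, had signals of 10349, 45102, and 37598 on its single probe (NM_019440, chromosome 11 from 58036093 to 58036152). It was 4.43-fold higher with IFN-γ + αIL-10R and 3.78-fold higher in Triple than with CpG, the smallest increases among the 7 genes.

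Igtp, the regulator of the endoplasmic reticulum and lipid droplets, was 7.36-fold and 6.38-fold higher than with CpG (NM_018738, chromosome 11 from 58020927 to 58020986). Its probe is printed 10 times on the array, which gives the only direct measure of spot noise within the family. After outlier spots were left out, the signal was 19303 ± 369 over 9 spots with CpG, 139668 ± 4267 over 10 spots with IFN-γ + αIL-10R, and 118626 ± 5703 over 8 spots in Triple (mean ± SD between spots of 1 array). The spots ran from 18560 to 19721 with CpG, from 132136 to 145353 with IFN-γ + αIL-10R, and from 109938 to 128699 in Triple. The spots of the 3 arrays did not overlap, and after scaling the highest spot in Triple (131312) lay just under the lowest with IFN-γ + αIL-10R (131942). Single spots were not compared under the other scalings. Spots of 1 array are repeats of 1 RNA sample, and they say nothing about the spread between cultures.

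**Figure D3:**
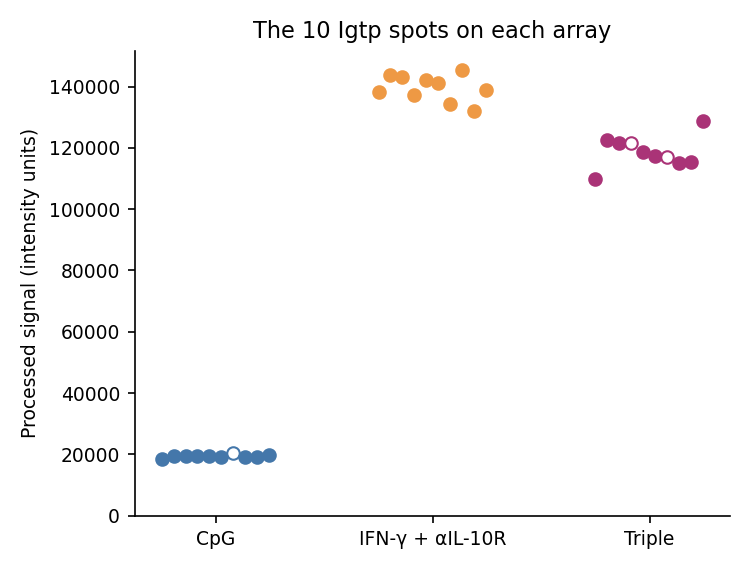
Processed signal (linear axis from 0) of the 10 spots of the Igtp probe on each array, with open points for spots flagged as outliers. Unflagged spots ran from 18560 to 19721 with CpG and from 109938 to 145353 on the other arrays, the Triple spots below those with IFN-γ + αIL-10R.

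Among the effectors, Iigp1, the IRG that loads onto Toxoplasma vacuoles, was dim with CpG and bright otherwise, with signals of 487, 29937, and 33679. It was 62.6-fold higher with IFN-γ + αIL-10R and 71.9-fold higher in Triple. Its log2 fold of 5.97 in the first comparison ranked 11 of the 16430 genes well above background on both arrays. Genes whose fold is a bound were not ranked. A second Iigp1 probe gave 227, 15113, and 19151, with log2 folds of 6.08 and 6.46 over CpG. Both probes (NM_001146275, chromosome 18 from 60551352 to 60551411 and from 60550839 to 60550898) thus placed the CpG array more than 60-fold below the others.

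Tgtp1 and Tgtp2 are neighbouring copies of 1 gene, and all of their probes are annotated to the transcripts of both (NM_011579 and NM_001145164), so that the copies cannot be told apart. The probe named Tgtp1 (chromosome 11 from 48799587 to 48799646) had signals of 51.4, 2938, and 4356. The bright probe named Tgtp2 (chromosome 11 from 48871837 to 48871896) had 14182, 251980, and 287386. The dim one (chromosome 11 from 48871605 to 48871664) had 42.6, 1440, and 2177, the value with IFN-γ + αIL-10R coming from a spot flagged as an outlier. The order of the arrays was the same in all 3 probes, with Triple the highest. The folds over CpG differed between probes, with 58.2-fold and 88.2-fold for Tgtp1, 18.1-fold and 21.1-fold for the bright Tgtp2 probe, and 34.4-fold and 53.2-fold for the dim one. With normexp background correction, in which an offset raises dim signals, the log2 fold of Tgtp1 was 4.59 in place of 5.86 for IFN-γ + αIL-10R over CpG and 5.19 in place of 6.46 for Triple over CpG.

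Ifi47, an effector of the IRGD subgroup, had signals of 21324, 143462, and 121876 (NM_001271676, chromosome 11 from 48910402 to 48910461). It was 6.84-fold higher with IFN-γ + αIL-10R and 5.94-fold higher in Triple than with CpG. Its folds lay closer to those of Igtp than to those of the other effectors.

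The log2 fold of IFN-γ + αIL-10R over CpG thus ran from 2.15 to 2.88 in the 3 regulators and from 2.78 to 5.97 in the 4 effector genes, with Ifi47 and Igtp overlapping. For Triple over CpG the ranges were 1.92 to 2.67 and 2.57 to 6.46. In order of the first fold the genes were Iigp1, Tgtp1, Tgtp2, Igtp, Ifi47, Irgm1, and Irgm2. Here Tgtp1 and Tgtp2 stand for the probes used under these names, which measure both copies, so their order is one of probes. Neighbours in this order that differed by less than the technical SD of a log2 fold were Iigp1 and Tgtp1, Igtp and Ifi47, and Irgm1 and Irgm2. For Triple over CpG Tgtp1 came before Iigp1, though not with normexp background correction (5.19 and 6.00), and the rest of the order was the same.

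Between the arrays with IFN-γ the differences were small. Irgm1 (−0.10), Irgm2 (−0.23), Igtp (−0.21), and Ifi47 (−0.20) had log2 folds below 0 for Triple against IFN-γ + αIL-10R, whereas Iigp1 (0.20), Tgtp2 (0.22), and Tgtp1 (0.60) had log2 folds above 0. Among the 6 genes with 1 spot per array, each value except that of Tgtp1 was smaller than 2 technical SD of single spots (0.25). This SD does not apply to Igtp, whose value is a mean over 8 to 10 spots. These spots did not overlap between these arrays as deposited or, narrowly, after the main scaling. The log2 fold of Igtp was nearer 0 (−0.09) with scaling to the 75th percentile of all probes, where overlap of spots was not examined. All 3 regulators and the effector Ifi47 lay below 0, and Iigp1 and the Tgtp probes, which measure both copies, lay above it, but the sign for Irgm1 depended on the scaling: its log2 fold was 0.02 with scaling to the 75th percentile of all probes and 0.01 in the log2 table of the authors. The signs of the other 6 genes were the same under every scaling tried. For Tgtp1, the probe alone was 1.52-fold higher in Triple, and the dim Tgtp2 probe gave 1.54-fold, whereas the bright Tgtp2 probe gave 1.17-fold.

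**Figure D4:**
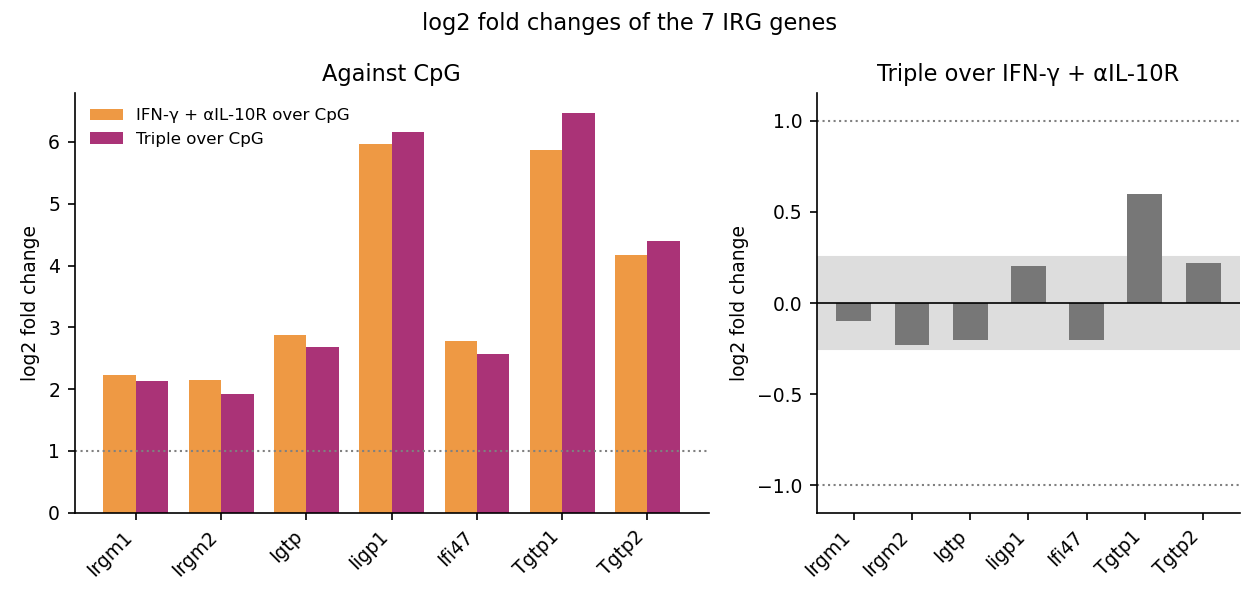
Log2 fold changes of the 7 IRG genes over CpG (left, IFN-γ + αIL-10R and Triple) and of Triple over IFN-γ + αIL-10R (right), from 1 array per condition. Dotted lines mark 2-fold and the grey band 2 technical SD of single spots. All 14 bars on the left pass 2-fold, and on the right Tgtp1 alone (0.60) leaves the band, which does not apply to Igtp with its repeated spots.

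Other genes of the IRG family gave similar values. Of 8 such genes on the list, 6 had a fold, and 5 of these were more than 2-fold higher with IFN-γ + αIL-10R than with CpG and 4 in Triple. Gm12250 (Irgb10), an effector that attacks bacterial membranes, had signals of 1368, 12634, and 7682, and was 9.39-fold higher with IFN-γ + αIL-10R and 5.84-fold higher in Triple. F830016B08Rik had 39.1, 994, and 1479 (25.9-fold and 39.3-fold), and Gm4951 had 1063, 19285, and 18420 (18.5-fold and 18.0-fold). Gm5431 had 1540, 5215, and 4064 (3.45-fold and 2.74-fold). In these genes, too, the CpG array was the lowest of the 3.

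9930111J21Rik1 had signals of 1015, 3513, and 1856, so that it was past 2-fold with IFN-γ + αIL-10R (3.52-fold) and not in Triple (1.90-fold). Its second, dimmer probe gave 280, 1634, and 1183 and was past 2-fold in both (5.93-fold and 4.39-fold), but it is also annotated to the transcript of Gm5431, so that the genes cannot be told apart on it. The only spot of 9930111J21Rik2 was flagged as an outlier on all arrays and was left out. Irgq, a divergent family member, had nearly equal signals of 509, 576, and 528, and Irgc1, known from testis, was not well above background on any array. Log2 folds of Triple over IFN-γ + αIL-10R were below 0 in 5 of these 6 genes, the lowest being −0.89 for 9930111J21Rik1 and −0.69 for Gm12250, and F830016B08Rik was above 0 with 0.60.

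On chromosome 11 the IRG probes formed clusters in mm9, an analysis chosen after the values had been seen. The first ran from 48679069 to 48910461 and held Irgm1, Tgtp1, Tgtp2, Ifi47, Gm5431, and 9930111J21Rik1, all of them more than 2-fold higher with IFN-γ + αIL-10R than with CpG. On probes within it or up to 200 kb beside it were 18 other gene names, counted as other because the IRG lists did not hold them. Of these, 14 were above background on at least 1 array. With IFN-γ + αIL-10R over CpG, 1 was higher (Gm12185, named above) and 1 was lower (Btnl9, above background on 1 array only). Gm12185 lies between Gm5431 and 9930111J21Rik1 of this cluster, and whether it belongs to the family was not examined. The second cluster, from 58003608 to 58036152, held Gm12250, Igtp, and Irgm2, all 3 of them higher. Of 19 other names around it, 11 were above background and 0 were higher in the same comparison. A transcribed interval without a gene name, above background on 1 array only, was lower. Neighbours such as Trim41 (log2 fold −0.46), Gnb2l1 (−0.22), Cnot8 (0.25), and Larp1 (0.00) were within 2-fold in that comparison. In Triple over CpG, Gm12185 (at least 3.10), Olfr1396 (1.44), and Olfr56 (at least 1.055) were higher beside the first cluster. A transcript without a gene symbol (1.73) was higher beside the second. Btnl9 and the interval were again lower.

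Genes for the IFN-γ receptor and for the factors downstream of it, through which IFN-γ is known to induce IRGs, were then compared. Of 19 genes on the list, 18 had a fold, 10 were higher and 1 lower with IFN-γ + αIL-10R than with CpG, and 10 were higher and 0 lower in Triple, where 2.75% and 4.55% of all genes were lower. The receptor chains Ifngr1 (0.99-fold) and Ifngr2 (0.71-fold) and the kinase Jak1 (1.01-fold) were within 2-fold for IFN-γ + αIL-10R over CpG, as was the kinase Jak2 (1.60-fold), whose fold for Triple over CpG was 3.84. Ifng itself was not well above background on any array.

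Irf1, which binds the ISRE, had signals of 9196, 132675, and 123964, in the order of the arrays used above, and was 14.7-fold and 14.0-fold higher than with CpG. Stat2, a part of the complex that type I interferons activate, was 2.03-fold and 1.93-fold higher and Stat3 2.21-fold and 2.94-fold, whereas Irf9, the DNA-binding part of that complex, was at 0.988-fold and 1.09-fold. For Irf8, a macrophage factor, the folds were 3.89 and 4.60, for Irf2 2.32 and 1.55, for Nlrc5, the activator of MHC class I genes, 4.22 and 5.46, and for Batf2 25.8 and 32.7. A second, dim Irf1 probe had signals of 8.2, 191, and 252. Like the IRG genes, Irf1 was higher on both arrays with IFN-γ, and its log2 fold of Triple over IFN-γ + αIL-10R was −0.07 (0.43 on the second probe).

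Not every gene of the pathway had this pattern. Ciita, the activator of MHC class II genes, had signals of 114, 258, and 63.3 and was 2.31-fold higher with IFN-γ + αIL-10R than with CpG but at 0.58-fold in Triple. Among the feedback inhibitors, Socs1 had 1059, 40651, and 50881, whereas Socs3 had 17358, 8207, and 52485, lower with IFN-γ + αIL-10R than with CpG and highest in Triple. The phosphatase Ptpn2 (1.91-fold and 1.99-fold) stayed just under 2-fold, and Usp18 was 1.31-fold and 2.08-fold higher.

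Guanylate-binding proteins (GBPs), which are recruited to the same vacuoles as the effector IRGs, had the largest median folds over CpG of the lists compared. Of 12 GBP gene names listed, 11 were in use on the array, and all 11 were more than 2-fold higher than with CpG in both comparisons, with medians of 5.89 and 5.62 on the log2 scale. Gbp1 was at least 791-fold higher with IFN-γ + αIL-10R, its CpG signal not being well above background, and Gbp4 was 220-fold higher. The lowest folds were those of Gbp7 (10.6) and Gbp9 (9.42). Between the arrays with IFN-γ, 2 of the 11 GBPs were higher in Triple, Gbp4 (2.46-fold) and Gbp10 (2.14-fold), and 1 was lower, Gbp1 (16.0-fold, with signals of 18472 and 1127), while the median log2 fold was 0.27. Of the other interferon-inducible GTPases, Mx1 was 5.80-fold and 6.21-fold higher than with CpG, Gvin1 4.12-fold and 3.97-fold, and Mx2 1.74-fold and 2.07-fold.

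The conjugation machinery of autophagy, by which GKS proteins are directed to vacuoles, did not share these folds. Of 21 listed genes, 20 had a fold, 0 were higher and 1 was lower with IFN-γ + αIL-10R than with CpG, and the median log2 fold was −0.07. The highest were the ubiquitin ligases Trim21 (0.90) and Rnf115 (0.50), and the lowest were the autophagy receptors Optn (−1.72) and Calcoco2 (at most −0.72). In Triple over CpG, Trim21 was higher (1.22) and Optn lower (−1.46).

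Genes of the type I interferon response had smaller folds over CpG, and genes of TLR signalling had another pattern. Of 22 type I interferon genes, 10 were more than 2-fold higher with IFN-γ + αIL-10R than with CpG and 12 in Triple, with median folds of 2.05 and 2.14 over CpG and 1.07 between Triple and IFN-γ + αIL-10R. The highest of the first comparison were Ifit2 (2.64) and Rsad2 (2.37), which encode antiviral proteins, and the lowest were the receptor chain Ifnar1 (−0.69) and the factor Irf3 (−0.13). Of 10 TLR response genes, 1 was higher and 7 were lower with IFN-γ + αIL-10R than with CpG, whereas 9 were higher in Triple. Ptgs2 (1.88) and the inhibitor Tnfaip3 (−0.51) were the highest, and the cytokines Il1b (at least 53.3-fold lower) and Il6 (at least 11.8-fold lower) the lowest. In Triple over IFN-γ + αIL-10R all 10 TLR response genes and none of the 7 IRG genes were more than 2-fold higher.

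**Figure D5:**
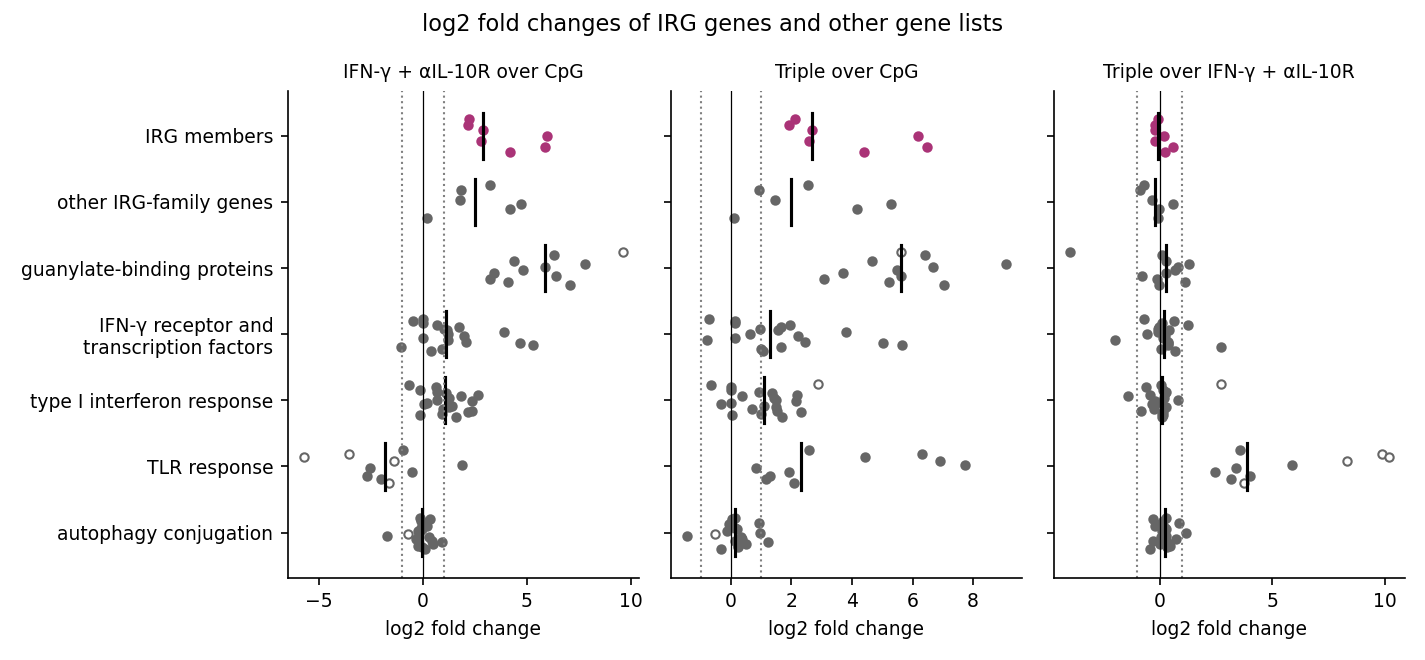
Log2 fold changes of single genes in 7 lists for the 3 comparisons, 1 point per gene, with the list's median as a black line and 2-fold as dotted lines. Open points are bounds, with the dimmer signal close to background. IRG genes and GBPs lie to the right of 2-fold over CpG, and IRG genes lie between the dotted lines in Triple over IFN-γ + αIL-10R, where all TLR response genes lie to the right.

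The genes whose pattern over the 3 arrays was closest to the median of the IRG genes, by Euclidean distance of centred log2 values among 10579 genes that have a symbol and were measured above background throughout, were Arhgef3 (distance 0.04), Tmem67 (0.14), Col4a2 (0.15), Otud1 (0.19), and Vegfa (0.25). Arhgef3 had signals of 665, 4940, and 4255. With 3 arrays such a likeness rests on 3 points per gene. Igtp lay on the median itself and Ifi47 at a distance of 0.09, whereas Iigp1 (2.70) and Tgtp1 (2.82) lay far from it, so that the median describes the members with moderate folds.

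The cells had the markers of macrophages, with 7 of 9 listed gene names measured and all 7 well above background on every array, among them Csf1r and Cd68. Their summed signal was 610772, 572568, and 522271 on the arrays for CpG, IFN-γ + αIL-10R, and Triple. Single markers differed more than this sum. With IFN-γ + αIL-10R, Cd14 was 9.84-fold and Itgam 2.51-fold lower than with CpG, and Mertk was 2.48-fold and Fcgr1 2.08-fold higher. In Triple, Mertk was 4.05-fold higher than with CpG. Against IFN-γ + αIL-10R, Triple had Cd14 16.8-fold higher and Cd68 2.25-fold lower. None of 3 NK cell markers was above background, nor were Cd3d, Cd3g, and Cd8a among 5 T cell markers or Ms4a1 among 4 B cell markers. The 2 other T cell markers, Cd3e and Cd4, were above background on all arrays, and the summed T cell signal was 2529, 2830, and 2640. Of the B cell markers, Cd79a and Cd79b were above background on all arrays, and the summed B cell signal was 879, 270, and 170. Of 5 neutrophil markers, Ly6g and Elane were above background on all arrays and Mpo and Ltf on none, and their sum was 3489, 9353, and 4348. Of 3 dendritic cell markers, Siglech was above background on all arrays and Flt3 on none (sum 36114, 36036, and 29882, most of it Siglech). The third, Zbtb46 (25.1, 36.3, and 133), was not well above background with CpG and was highest in Triple. Of 3 fibroblast markers measured, Col1a1 was above background on all arrays and Pdgfra on none (sum 221, 111, and 163). The third, Col3a1 (38.8, 9.79, and 58.5), was not well above background with IFN-γ + αIL-10R. The neutrophil sum was lowest, like the IRG genes, on the CpG array, as was the T cell sum by a smaller margin. The neutrophil markers differed from each other. Ly6g (555, 7699, and 2658) was lowest with CpG, Elane (2839, 1615, and 1539) was highest with CpG, and Camp (72.9, 17.5, and 139) was highest in Triple and not well above background with IFN-γ + αIL-10R. The part of these markers in the IRG folds was not tested.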

How the data were processed

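The authors deposited scanner files for 3 arrays, 1 per condition, written by Agilent Feature Extraction 10.10.1.1, in which the processed signal is a linear intensity, together with a log2 table made from these arrays. Each column of the deposited log2 table equalled log2 of the processed signal less a constant of its array (99.7% of 55681 probes within 0.01). Its columns have medians of −4.26, −4.38, and −4.27.

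Control spots and outlier spots were not used. Repeated spots of a probe entered as their mean log2 signal. Arrays were aligned at the 75th percentile of the 21233 probes, of 52752, that all arrays measured well above background. On a single array 44.2% of the probes were well above background on average, under the limit of 50% set for using all probes. A gene took its probe with the highest mean. Signals without the flag for being well above background were set to the lowest signal with it, if they lay under it (23.8, 26.7, and 26.3), and the fold is then a bound. Genes were named by the array design.

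With 1 array per condition no test was possible. The number of arrays limits the precision. Named were all members with every probe, all genes of the lists for other IRGs, for the IFN-γ pathway, and for other inducible GTPases, the 2 highest and 2 lowest of the other lists for IFN-γ + αIL-10R over CpG, and the 5 nearest patterns, except for a few list genes that are counted but not reported here by name. Neighbouring genes, Gm12185, and the motif search were chosen after values were seen. The members and lists were chosen with earlier results of these data known.

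Other settings tried were background correction by normexp in limma 3.58.1 under R 4.3.3, with an offset of 50, other scalings (75th percentile over all probes, quantile, none, relative to Actb), the authors' table, no lower limit, outlier spots kept, the mean over probes, and thresholds of 1.5-fold and 3-fold. The code, in Python 3.11.15 with numpy 2.4.6 and pandas 2.3.3, was tested on simulated arrays.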

Additional observations from a re-analysis of the deposited data

How the results depend on the processing

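The counts of 7 and 7 IRG genes more than 2-fold higher than with CpG were the same under all alternatives tried, the 3-fold threshold included. The median log2 fold ranged from 2.83 to 2.93 for IFN-γ + αIL-10R over CpG and from 2.61 to 2.74 for Triple over CpG. For Triple over IFN-γ + αIL-10R the median ranged from −0.19 (relative to Actb) to 0.02 (75th percentile over all probes). It was above 0 there and in the authors' table (0.01), and below 0 otherwise. The number past the threshold in that comparison was 0 at 2-fold and 3-fold and 1 at 1.5-fold, namely Tgtp1. Scaling relative to Actb moved the median of all genes to −0.12 for Triple over CpG and −0.14 for Triple over IFN-γ + αIL-10R, and no scaling moved the first to −0.11. Among single genes, normexp lowered the dim-signal folds of Iigp1 to 5.77 and 6.00 over CpG, and the mean over probes gave 2.42 and 2.36 for Irgm1 and 6.31 for Iigp1 in Triple. No paired analysis was possible because there was 1 array in each condition, and for the same reason no replicate could be left out. Signal over background limits the folds of Tgtp1, Iigp1, and F830016B08Rik, whose CpG signals were dim.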
